A study of Mus musculus with 6 samples.

Results

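The lower part of glycolysis turns fructose bisphosphate into phosphoenolpyruvate, the substrate of pyruvate kinase. The genes described here are the 10 genes of this stretch that the count table holds, chosen by their symbols and not by their values: *Aldoa*, *Aldoc*, *Tpi1*, *Gapdh*, *Pgk1*, *Pgam1*, *Pgam2*, *Eno1b*, *Eno2* and *Eno3*, out of 13809 genes in all. They were measured in hearts of mouse embryos at E18.5 (embryonic day 18.5) from wild-type animals (WT, 3 libraries) and from animals with a homozygous deletion in the *Pkm1*-specific exon of *Pkm* (KO, 3 libraries). The deletion was made by CRISPR/Cas9 in zygotes of hybrid mice from C57BL/6J and DBA/2 parents, is carried by every cell of the body and causes an early stop in the *Pkm1* transcript. The KO embryos came from crosses of heterozygous parents. The labels call the tissue heart and the study calls it ventricular, and the values are counts of reads per gene from total RNA after removal of ribosomal RNA. In bulk tissue, fewer cells of a type and less RNA per cell cannot be told apart.

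Aldolase splits fructose bisphosphate into the triose phosphates, which triosephosphate isomerase interconverts. Glyceraldehyde 3-phosphate dehydrogenase then oxidises the triose and makes NADH, phosphoglycerate kinase makes ATP, phosphoglycerate mutase moves the phosphate group, and enolase removes water to give phosphoenolpyruvate. Several steps have isozymes: *Aldoa*, *Pgam2* and *Eno3* encode the forms known from muscle, *Aldoc* and *Eno2* the forms best known from brain and neurons, and *Pgam1* the widely expressed mutase. The alpha enolase of most tissues is encoded by *Eno1*, and *Eno1b* is a retrogene, a copy of *Eno1* that is largely without introns. Pyruvate kinase, whose M1 form the deletion removes, uses the product of this stretch.

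The 6 libraries held 15567624 to 19875546 counts each. A gene was taken as detectable from 3 counts on, or 0.151 to 0.193 CPM (counts scaled to library size), a limit that covers counting error only. CPM values below were scaled by edgeR's TMM method, errors are SD over the 3 libraries of a genotype (n = 3), and adjusted p-values are from edgeR's quasi-likelihood test over 13804 genes with Benjamini-Hochberg adjustment and a threshold of 0.05. The columns of the table carry no replicate number, so the libraries are called WT a, b and c and KO a, b and c in column order. The targeted gene, *Pkm*, was at 1294, 1296 and 1366 CPM in WT and at 547, 530 and 549 CPM in KO, a log2 fold change of -1.28 (SE, the standard error, 0.0269, adjusted p = 1.47e-23), and these counts do not separate *Pkm1* from *Pkm2*. *Xist*, the RNA of the inactive X chromosome, was at 5.26 CPM in WT against 2285 CPM in KO on average, and the Y-linked *Ddx3y*, *Uty* and *Eif2s3y* had 0 counts in every KO library. Genotype and sex therefore cannot be told apart in any comparison below. WT c stood farthest from the other libraries of its group, with a chi-square per gene of 3.24 and 3.76 against WT b and WT a, compared with 1.56 between WT a and WT b, 1.62 to 1.88 between KO libraries and at least 15.5 across genotypes. Ventricular cardiomyocyte markers summed to 58590 to 62060 CPM in WT and 54399 to 55154 CPM in KO. Of 8, 6 were called lower and 2 higher in KO at adjusted p under 0.05. Atrial markers summed to 595 to 601 CPM in WT and 1006 to 1030 CPM in KO, with 3 of 6 called higher. Their part in the results below was not tested.

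Of the 10 lower glycolysis genes, 7 passed the test, against 30.3% of all genes tested. Of these, 5 were higher in KO hearts (*Aldoa*, *Tpi1*, *Pgk1*, *Pgam1* and *Eno1b*) and 2 were lower (*Pgam2* and *Eno3*), while *Aldoc*, *Gapdh* and *Eno2* did not pass. Over all genes tested, 14.6% were called higher and 15.7% lower. Library totals without TMM factors moved that split from 2011 higher and 2168 lower genes to 2911 higher and 1527 lower, and the smaller differences below moved with it. With at least a 1.5-fold change, *Pgam1* and *Eno1b* passed, both higher, against 2.99% of all genes called higher and 3.2% called lower. The 3 WT and 3 KO libraries did not overlap for 5 genes on the higher side and 1 on the lower side, against 21% and 21.4% of all genes, or 42.4% in either direction. The median log2 fold change of the 10 genes was 0.05, beside 0.0017 for all genes. Together the 10 genes took 0.693% to 0.720% of the raw counts in WT libraries and 0.753% to 0.775% in KO libraries, without TMM scaling. With TMM scaling, their summed CPM was 7103 to 7283 in WT and 7416 to 7622 in KO. Apart from *Pgam1* and *Eno1b*, the called genes differed by less than 10% between genotypes: *Eno3* was 9.52% and *Pgam2* 6.34% lower in KO, and *Pgk1* was 6.63%, *Tpi1* 5.54% and *Aldoa* 4.13% higher.

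**Figure D1:**
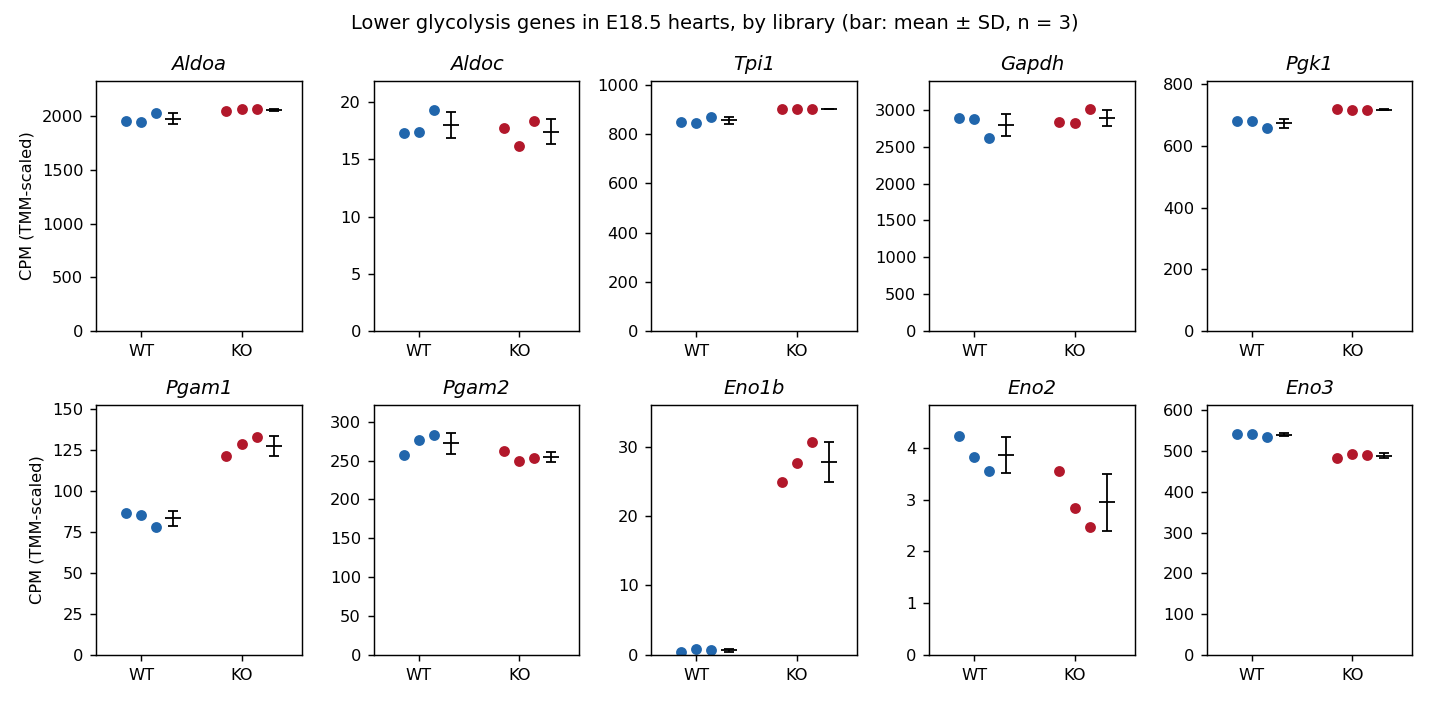
CPM of each of the 10 genes (vertical axes, each starting at 0) in the 3 WT and 3 KO libraries, with the mean and SD of each genotype as a bar. *Pgam1* and *Eno1b* stand clearly higher in KO, from 83.2 to 127 CPM and from 0.643 to 27.7 CPM on average, while *Eno2* is lower on average in KO, from 3.87 to 2.95 CPM, with overlapping libraries, and the means of the other 7 genes differ by less than 10%.

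The muscle isozymes and the single-gene steps were far more abundant than the other isozymes. Lengths were taken from the longest GENCODE transcript matched to a RefSeq mRNA. Per kilobase of this length, the WT means ran from *Gapdh* at 1969 CPM per kb through *Aldoa* at 1277, *Tpi1* at 533 and *Pgk1* at 369. Then came *Eno3* at 345, *Pgam2* at 324, *Pgam1* at 46.9, *Aldoc* at 6.46, *Eno2* at 1.38 and *Eno1b* at 0.359 CPM per kb. No neighbours in this WT order overlapped between their libraries. In KO, *Eno3* at 312 and *Pgam2* at 303 CPM per kb overlapped, and *Eno1b* at 15.5 CPM per kb lay above *Aldoc* at 6.24 and *Eno2* at 1.06. The order of the high genes depends on the length used. With all annotated exons merged, *Aldoa* at 680 and *Gapdh* at 676 CPM per kb in WT overlapped, and *Pgam2* at 324 overlapped with *Tpi1* at 311, as did *Tpi1* with *Eno3* at 311.

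**Figure D2:**
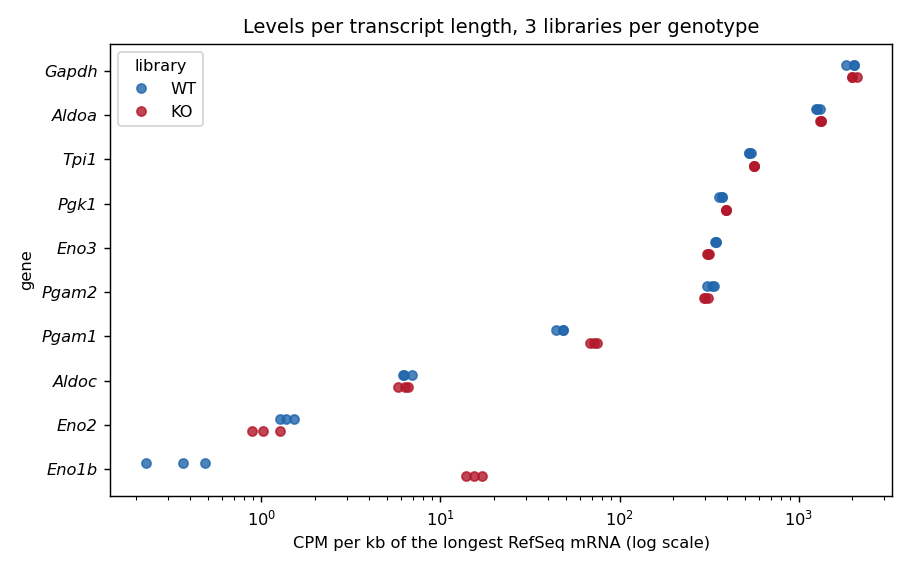
CPM per kilobase of the longest transcript matched to a RefSeq mRNA (horizontal log axis) for each gene, with 1 point per library, WT in blue and KO in red. The 6 most abundant genes have means of at least 303 CPM per kb in both genotypes, and *Eno1b* moves from the last place in WT, at 0.359, to above *Aldoc* in KO, at 15.5.

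The aldolase step was carried almost wholly by *Aldoa* (muscle aldolase, chromosome 7 from 126795234 to 126800751 on the minus strand of GRCm38), which was slightly higher in KO. It was at 1956, 1944 and 2036 CPM in WT and at 2048, 2064 and 2069 CPM in KO. All KO libraries lay above all WT libraries, but WT c came close to KO a. The log2 fold change of 0.06 had an SE of 0.0223 and an adjusted p of 0.0482. This call was lost with RLE size factors (adjusted p = 0.0512), DESeq2 (0.163) and edgeR's exact test (0.117). It was also lost without WT a, WT b, KO a, KO b or KO c, where the log2 fold change was 0.0439 to 0.0630 and the adjusted p 0.107 to 0.245. *Aldoc* (brain aldolase, chromosome 11 from 78322968 to 78327781 on the plus strand) was at 17.3, 17.4 and 19.3 CPM in WT and 17.7, 16.2 and 18.3 CPM in KO. Its libraries overlapped and it did not pass the test, with a log2 fold change of -0.04 (95% interval -0.21 to 0.13, adjusted p = 0.739) that changed sign without TMM factors and without WT c or KO b. *Aldoc* made up 0.503% ± 0.0195 of the length-scaled aldolase signal in WT and 0.467% ± 0.0296 in KO. The log2 ratio of *Aldoc* to *Aldoa* counts differed by -0.11 between genotypes with overlapping libraries (two-sided exact permutation test, p = 0.2, adjusted over 4 ratios 0.267). Summed over both genes, aldolase was at 1997 ± 50.7 CPM in WT against 2078 ± 11.4 CPM in KO. These sums did not overlap, with an exact permutation p of 0.1, the smallest that 3 against 3 libraries can give, here and for the other sums and ratios.

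The next 3 steps each rest on 1 gene in this table besides the low *Gapdhs*, and all 3 genes had a higher mean in KO. *Tpi1* (triosephosphate isomerase, chromosome 6 from 124810586 to 124814296, minus strand) was at 850, 847 and 871 CPM in WT and at 903.0, 903.4 and 903.8 CPM in KO. The KO libraries were nearly equal and lay above every WT library, with a log2 fold change of 0.08 (SE 0.0244, adjusted p = 0.0165). The call was lost without WT b (adjusted p = 0.0974), KO a (0.0629) or KO b (0.0560), at log2 fold changes of 0.0680 to 0.0782. *Pgk1* (phosphoglycerate kinase, X chromosome from 106187100 to 106203699, plus strand) was at 680, 682 and 658 CPM in WT and 721, 717 and 717 CPM in KO. No KO library reached down to a WT library, and the log2 fold change was 0.09 (SE 0.0257, adjusted p = 0.0076). *Pgk1* is X-linked, and the part of sex in its value cannot be told apart from that of genotype. It passed the test in all 14 alternatives that gave it a value, with log2 fold changes of 0.0746 to 0.140. The muscle phosphofructokinase gene *Pfkm*, from the step before aldolase, moved the other way, from 346 ± 0.850 CPM in WT to 326 ± 6.19 CPM in KO (log2 fold change -0.09, adjusted p = 0.0256). The other phosphofructokinase genes were higher in KO. *Pfkl* had a log2 fold change of 0.34 (adjusted p = 1.95e-09) and *Pfkp* 0.27 (adjusted p = 5.13e-07).

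*Gapdh* (glyceraldehyde 3-phosphate dehydrogenase, chromosome 6 from 125161715 to 125166467, minus strand), the most abundant of the 10 by counts and a common reference gene, did not pass the test. It was at 2888, 2880 and 2619 CPM in WT and at 2832, 2815 and 3006 CPM in KO. The libraries overlapped, with WT c lowest and KO c highest. The log2 fold change was 0.04 with a 95% interval of -0.02 to 0.10 (adjusted p = 0.257), and it was -0.0012 without WT c. Without TMM factors it was 0.0924 and passed (adjusted p = 0.0220). The study's RT-qPCR primer pair for *Gapdh* is shown because this gene has many near-identical copies in the mouse genome.
Gapdh forward: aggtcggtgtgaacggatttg
Gapdh reverse: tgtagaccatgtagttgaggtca
Both primers lie in 5 annotated *Gapdh* transcripts, where they span 123 bases, and also, with every base matching, in annotated transcripts of 43 other genes, 1 of which has a row in the count table. Of the 150-base words in *Gapdh* transcripts, 18.1% occur in transcripts of 48 other genes. The related *Gapdhs*, the dehydrogenase known from sperm, was at 8.34 ± 1.10 CPM in WT against 9.94 ± 0.451 CPM in KO, with overlapping libraries and a log2 fold change of 0.24 that did not pass (adjusted p = 0.103).

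Phosphoglycerate mutase was the step where the isozymes parted most among the abundant genes: *Pgam1* was 53.1% higher while *Pgam2* was slightly lower. *Pgam1* (brain-type mutase, chromosome 19 from 41911923 to 41918660, plus strand) was at 86.2, 85.3 and 78.0 CPM in WT and at 121, 129 and 133 CPM in KO. The groups were well apart, with a log2 fold change of 0.61 (SE 0.0453, 95% interval 0.52 to 0.71, adjusted p = 3.63e-11). All 15 alternatives called it, with log2 fold changes of 0.569 to 0.660. *Pgam2* (muscle mutase, chromosome 11 from 5801640 to 5803733, minus strand) was at 257, 277 and 283 CPM in WT and at 262, 249 and 253 CPM in KO. WT a lay among the KO libraries, so the groups overlapped. Its log2 fold change of -0.09 (SE 0.0354, adjusted p = 0.0454) was past the threshold by a small margin and was lost with DESeq2 (adjusted p = 0.106), edgeR's exact test (0.0696), at least 10 counts in every library (0.0504) and no TMM factors (log2 fold change -0.0459, adjusted p = 0.331). Leaving out WT b, WT c, KO a, KO b or KO c also ended it (log2 fold change -0.115 to -0.0685, adjusted p = 0.0518 to 0.183), while without WT a it was -0.134 and passed.

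A ratio of 2 genes within a library does not depend on the scaling. There were 2.98, 3.24 and 3.62 *Pgam2* counts per *Pgam1* count in the WT libraries and 2.17, 1.94 and 1.91 in the KO libraries. The ratio was thus lower in every KO library than in any WT library, by 0.71 on the log2 scale (two-sided exact permutation test, p = 0.1, adjusted over 4 ratios 0.2). Per kilobase, *Pgam2* made up 87.3% ± 1.08 of both mutases in WT and 80.9% ± 1.06 in KO. The summed mutase counts were 355 ± 10.4 CPM in WT against 382 ± 4.19 CPM in KO, without overlap (exact permutation p = 0.1, adjusted over 3 sums 0.1). *Bpgm*, which makes and removes bisphosphoglycerate in red cells, was at 18.0 ± 1.14 CPM in WT against 16.5 ± 1.92 CPM in KO and did not pass (log2 fold change -0.12, adjusted p = 0.308).

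**Figure D3:**
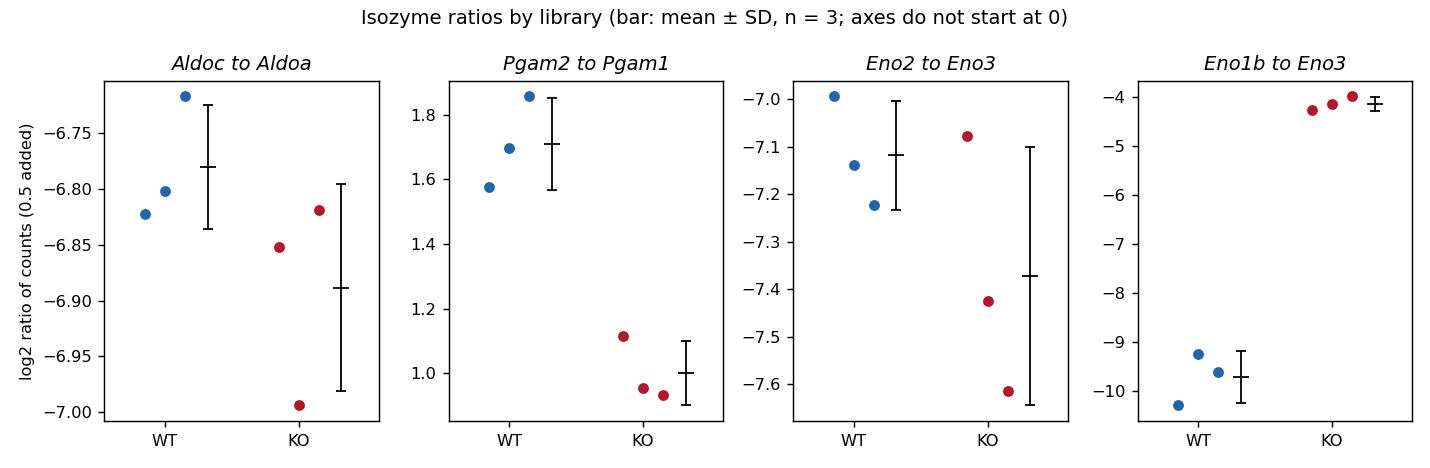
Log2 ratio of the counts of 2 isozymes (0.5 added to each count; vertical axes differ and do not start at 0) in each WT and KO library, with the mean and SD as a bar. The ratios of *Pgam2* to *Pgam1* and of *Eno1b* to *Eno3* do not overlap between genotypes, with differences of -0.71 and 5.57, while those of *Aldoc* to *Aldoa* and *Eno2* to *Eno3* do.

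Of the enolase genes, *Eno3* was called lower in KO and *Eno2* did not pass the test. The *Eno1b* row alone was called higher, and its counts are uncertain as a measure of that gene, as given below. *Eno3* (muscle enolase, chromosome 11 from 70657202 to 70662513, plus strand) was at 543, 543 and 535 CPM in WT and at 483, 494 and 489 CPM in KO. Every KO library was below every WT library, and the log2 fold change was -0.14 (SE 0.0267, adjusted p = 1.53e-04). *Eno3* was called in all 15 alternatives, with log2 fold changes of -0.153 to -0.0968. *Eno2* (neuronal enolase, chromosome 6 from 124760053 to 124769673, minus strand) was low, at 4.23, 3.83 and 3.55 CPM in WT and 3.55, 2.84 and 2.47 CPM in KO, which were 73, 75 and 54 counts against 67, 45 and 46. WT c and KO a were level, and the log2 fold change of -0.39 (95% interval -0.76 to -0.02) did not pass the test (adjusted p = 0.105, and 0.0521 to 0.346 over 15 alternatives). Neural and glial markers summed to 7.04 to 8.69 CPM in WT and 6.68 to 9.41 CPM in KO over the 3 listed markers that have a row. Their part in the *Eno2* values was not tested. The log2 ratio of *Eno2* to *Eno3* differed by -0.25 with overlapping libraries (exact permutation p = 0.3, adjusted over 4 ratios 0.3).

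*Eno1b* had the largest change of the 10 genes. It had 7, 17 and 10 counts in the WT libraries and 470, 438 and 571 in the KO libraries, which were 0.405, 0.868 and 0.657 CPM against 24.9, 27.7 and 30.6 CPM. WT was near the limit of detection and KO lay far above it, with a log2 fold change of 5.39 (SE 0.163, adjusted p = 6.25e-20), or 42.1-fold with a 95% interval of 33.3 to 53.0. It was called in all 14 alternatives that gave it a value, at log2 fold changes of 5.15 to 5.71. These counts are uncertain as a measure of *Eno1b* itself: 62.9% of the 150-base words in its annotated transcripts also occur in other genes, 52.8% in *Eno1* and 49.2% in *Gm4735*, and at 50 bases the share is 85.2%. *Eno1* has no row in the count table used here, and RefSeq lists the symbol *Eno1* among the older names of *Eno1b*. Whether the reads came from one or the other gene was not tested. The sum of *Eno1b*, *Eno2* and *Eno3*, which lacks *Eno1*, was at 545 ± 4.78 CPM in WT against 519 ± 6.83 CPM in KO. The difference was -25.2 CPM without overlap (exact permutation p = 0.1, adjusted over 3 sums 0.1). It does not give the total of all enolase transcripts. Leaving out *Eno1b*, the difference was -52.3 CPM. *Eno1b* made up 0.104% ± 0.0372 of *Eno1b* and *Eno3* together per kilobase in WT and 4.72% ± 0.442 in KO. The log2 ratio of *Eno1b* to *Eno3* was 5.57 higher in KO without overlap (exact permutation p = 0.1, adjusted over 4 ratios 0.2).

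Of the other genes, *Pgk1* shares 49.4% of its 150-base words with *Pgk1-rs7* and *Gm5537*, and *Pgam1* shares 32.2% with *Pgam1-ps2*. *Aldoa*, *Aldoc*, *Tpi1*, *Pgam2*, *Eno2* and *Eno3* share 0 such words with other genes. None of the 24 genes found to share most words with the 10 genes has a row in the table. This check left out most copies of *Gapdh*, which shares 150-base words with 48 other genes. Of the other genes that hold both *Gapdh* primers, 1 has a row. How the authors' counting treated reads that fit several copies is not given in the sources used here, so the values of *Eno1b*, *Pgk1*, *Pgam1* and *Gapdh* carry this uncertainty. Exons of *Aldoa*, *Gapdh* and *Tpi1* overlap opposite-strand exons of *Fam57b*, *Iffo1* and *Spsb2* by 25, 68 and 34 bases.

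Promoter windows of RefSeq (GRCm38.p6, 300 bases each, from before the start site to 50 bases after it) were read for CCAAT boxes, the element bound by NF-Y, whose subunit NFYa the study examined, and for the core of the hypoxia response element. A window was given for 9 of the 10 genes, all but *Eno1b*. The windows of *Pgam1*, which was higher, and of *Pgam2* and *Eno3*, which were lower in KO, are shown. Capitals mark CCAAT boxes, read on either strand. They also mark the hypoxia element core, spelled ACGTG with its variant GCGTG, again on either strand.
Pgam1, chr19:41911621-41911920, plus strand: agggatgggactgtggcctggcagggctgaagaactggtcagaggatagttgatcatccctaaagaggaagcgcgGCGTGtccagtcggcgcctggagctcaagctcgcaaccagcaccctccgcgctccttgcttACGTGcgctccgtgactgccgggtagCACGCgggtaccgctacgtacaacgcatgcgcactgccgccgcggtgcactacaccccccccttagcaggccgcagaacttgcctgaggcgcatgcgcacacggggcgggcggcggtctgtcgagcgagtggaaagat
Pgam2, chr11:5803747-5804046, minus strand: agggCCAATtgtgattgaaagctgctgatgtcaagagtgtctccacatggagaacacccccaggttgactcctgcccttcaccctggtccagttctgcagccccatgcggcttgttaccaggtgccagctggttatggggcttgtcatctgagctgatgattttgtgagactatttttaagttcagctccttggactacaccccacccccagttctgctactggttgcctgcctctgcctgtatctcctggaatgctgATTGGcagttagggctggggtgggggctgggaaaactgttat
Eno3, chr11:70656926-70657225, plus strand: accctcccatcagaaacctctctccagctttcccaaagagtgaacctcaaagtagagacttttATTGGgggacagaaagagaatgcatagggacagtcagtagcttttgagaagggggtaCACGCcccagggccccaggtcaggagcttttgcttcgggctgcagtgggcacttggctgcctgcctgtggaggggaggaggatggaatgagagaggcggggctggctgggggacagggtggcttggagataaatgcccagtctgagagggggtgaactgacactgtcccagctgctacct
The *Pgam1* window holds 3 hypoxia element cores and 0 CCAAT boxes, the *Pgam2* window 2 CCAAT boxes and 0 cores, and the *Eno3* window 1 of each. The *Gapdh* window and the first *Aldoc* window also hold 3 cores each, and neither gene passed the test. Over the 9 genes, a core was found for 6 (*Aldoa*, *Aldoc*, *Eno3*, *Gapdh*, *Pgam1* and *Pgk1*) and a CCAAT box for 4 (*Aldoa*, *Eno3*, *Pgam2* and *Pgk1*). *Aldoa* and *Aldoc* have more than 1 window, and by windows a core was found in 8 of 12 and a CCAAT box in 5 of 12. Of 32851 mouse promoter windows of the same length, 43.8% hold a core and 37.4% a CCAAT box on either strand. Of the 4 genes with a CCAAT box, *Aldoa* and *Pgk1* were called higher and *Pgam2* and *Eno3* lower, and *Tpi1* and *Pgam1* were called without one. The calls of *Aldoa* and *Pgam2* held in 7 and 6 of 15 alternatives. Of the 6 genes with a core, *Aldoa*, *Pgam1* and *Pgk1* were called higher, *Eno3* was called lower, and *Aldoc* and *Gapdh* did not pass. The share called among all genes with either element was not computed, so no link between element and call can be read from these counts. These letters describe the windows and not a factor's binding.

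The steps around this stretch were compared by counts of genes called, beside 14.6% called higher and 15.7% called lower of all genes tested. Of 15 genes tested from glucose uptake to fructose bisphosphate, 8 were higher and 1 was lower in KO, with a median log2 fold change of 0.18. *Pfkfb3*, which makes the activator of phosphofructokinase, rose from 21.3 ± 1.88 to 43.9 ± 1.80 CPM (log2 fold change 1.05, adjusted p = 1.72e-12). The glucose transporters *Slc2a1* and *Slc2a3* rose with log2 fold changes of 0.68 and 0.46. Of 13 genes of pyruvate and lactate handling, 7 were lower and 2 higher, with a median of -0.11. *Pkm* itself, the kinase *Pdk4* (log2 fold change -0.56), which restrains pyruvate dehydrogenase, and the pyruvate carrier subunit *Mpc1* (-0.48) were lower, and the lactate exporter *Slc16a3* (0.58) and lactate dehydrogenase *Ldha* (0.17) were higher. Of 11 genes of the branches that leave between the triose phosphates and phosphoenolpyruvate, 1 was called, *Phgdh*, the first enzyme of serine synthesis (log2 fold change 0.36, adjusted p = 0.0043). Among the lower glycolysis genes, *Pgam1* had a log2 fold change near those of *Slc2a1* and *Slc16a3*, while *Aldoa*, *Tpi1*, *Gapdh* and *Pgk1* were at 0.10 or less.

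**Figure D4:**
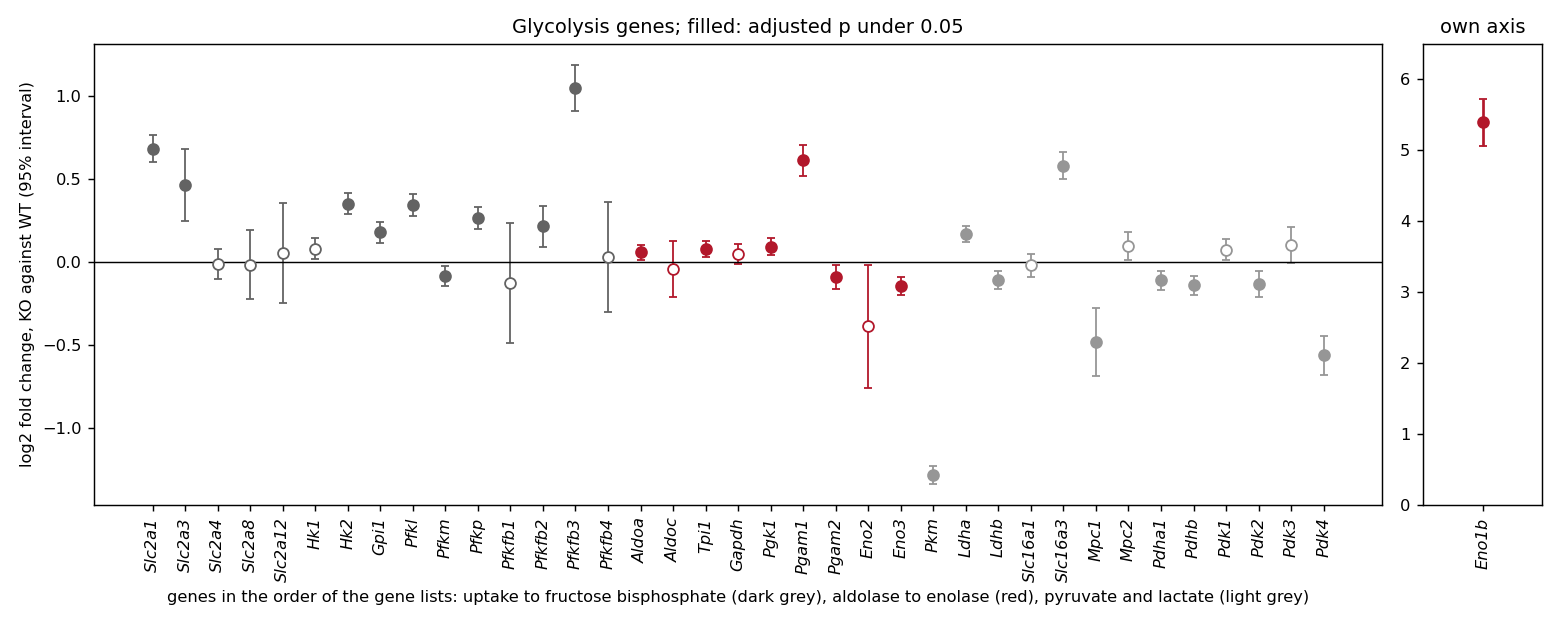
Log2 fold change of KO against WT with its 95% interval (vertical axis) for the tested genes of glucose uptake to fructose bisphosphate (dark grey), aldolase to enolase (red) and pyruvate and lactate (light grey), filled where the adjusted p was under 0.05, with *Eno1b* at 5.39 on an axis of its own. *Pgam1*, at 0.61, lies apart from the other red points, of which *Eno2* at -0.39 has the widest interval.

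Many glycolysis genes are known targets of the hypoxia-inducible factors, so genes that respond to hypoxia outside glycolysis were listed as well. Of these, 11 of 13 were called higher in KO and 0 called lower, against 14.6% and 15.7% of all genes tested. Their median log2 fold change was 0.45. *Ankrd37* (log2 fold change 1.62), the peptide hormone gene *Adm* (0.59) and *Vegfa* (0.56), the vascular growth factor, had the largest changes. Whether these lists share a cause with the lower glycolysis genes was not tested.

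Marker transcripts of other cell types are given beside these small differences, and not all of them differed between genotypes. Calls are at adjusted p under 0.05, where 14.6% of all genes tested were called higher and 15.7% lower. Epicardial markers had 3 of 6 called higher, among them *Krt19* and *Wt1*, with sums of 124 to 127 CPM in WT and 141 to 155 CPM in KO. Endothelial markers had 3 of 6 called lower, with sums of 1066 to 1071 CPM in WT and 993 to 1008 CPM in KO. Fibroblast markers had 3 of 7 called lower, with sums of 3915 to 3958 CPM in WT and 3647 to 3720 CPM in KO. Macrophage markers had 1 of 6 called lower, with sums of 33.2 to 36.3 CPM in WT and 32.4 to 39.2 CPM in KO. Erythroid markers had 1 called higher and 1 called lower of the 3 with a row, and the 4 globin genes listed had no row. Of the skeletal muscle markers, *Myh3* alone had a row, at 1.62 CPM in WT against 0.784 CPM in KO on average, and *Myod1* and *Myog* had none. Their part in the lower glycolysis values was not tested.

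Genes of the most similar pattern were sought for *Eno1b*, *Pgam1* and *Eno2*, the 3 genes with the largest log2 fold changes in size. Of these, *Eno2* did not pass the test. The measure was the root mean square difference of log2 CPM over the 6 libraries, with 0.5 added to each CPM and centred on the WT mean. It was taken among the 13507 genes whose mean level reached 1 CPM. Nearest to *Pgam1* were *Bhlhe40*, a repressor of the clock and of hypoxia-responsive transcription (difference 0.0320), and *Tlr5*, a receptor for flagellin (0.0385). *Bhlhe40* was at 46.2 CPM in WT against 71.0 CPM in KO, a log2 fold change of 0.62. Nearest to *Eno2* were *Gm7120* (0.0643) and *Lgals3*, a lectin gene (0.0663). *Eno1b* had no close match: the nearest, the calcium release channel gene *Ryr3* and the adhesion gene *Mpzl2*, were 2.02 and 2.05 away. Their log2 fold changes, from the edgeR fit and not from the values with 0.5 added, were 1.93 and 2.28.

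The alternatives separate the 10 genes into those whose call held throughout and those whose call depended on scaling, test or a single library. *Pgam1*, *Eno3*, *Pgk1* and *Eno1b* were called in every alternative that gave them a value. *Tpi1* was called in 12 of 15, *Aldoa* in 7 of 15, *Pgam2* in 6 of 15, *Gapdh* in 1 of 15, and *Aldoc* and *Eno2* in 0 of 15.

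**Figure D5:**
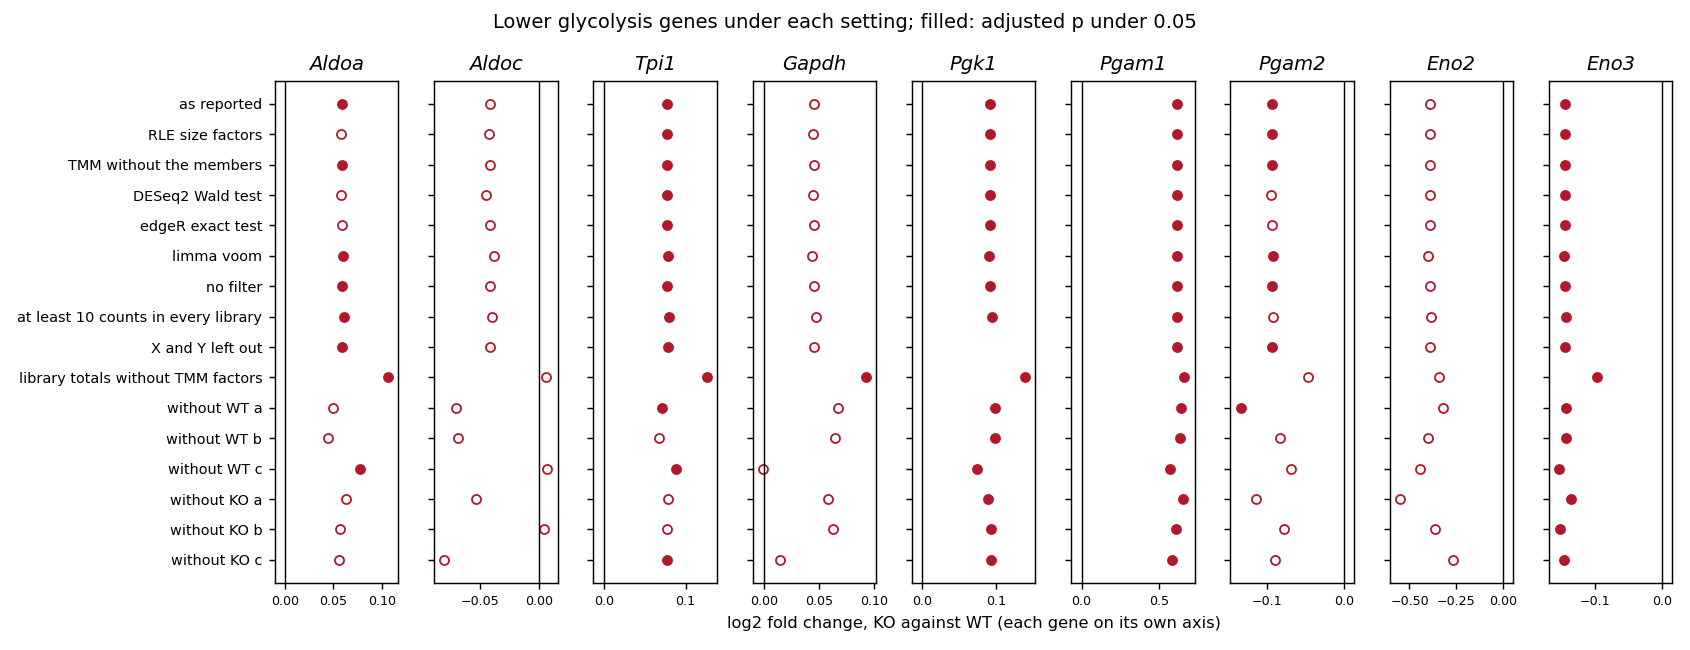
Log2 fold change of KO against WT (horizontal axes, 1 per gene) for 9 of the 10 genes under the settings named on the left, filled where the adjusted p was under 0.05; *Eno1b*, called in all 14 alternatives with a value, is left out for its size. *Aldoa*, *Tpi1*, *Gapdh* and *Pgk1* move to the right together with library totals in place of TMM, and *Gapdh* falls to -0.0012 without WT c.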

How the data were processed

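Total RNA of 3 WT and 3 *Pkm1*-KO E18.5 hearts was sequenced. The authors trimmed reads with cutadapt 1.18 and used HISAT2 and StringTie with build mm10, per the submitters' processing notes; the counting program and annotation are not given in the sources used here. The authors deposited whole-number counts per gene symbol, not normalized. Their own columns beside these (log2 fold change, average log2 CPM, p-value and false discovery rate) were deposited with the counts and were not used.

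KO was compared with WT on these counts with edgeR 4.0.16 in R 4.3.3: filterByExpr with the genotype given (13804 of 13809 genes kept), TMM, and a two-sided quasi-likelihood test of genotype without further covariates, with Benjamini-Hochberg adjustment. Ratios (0.5 added to each count) and sums over a reaction were compared with exact two-sided permutation tests over libraries (scipy 1.17.1). The quasi-likelihood p-values set the genotype difference against the variation between libraries of a genotype, estimated with information shared across genes. The study describes the libraries as biological replicates. The fit was repeated with RLE size factors, TMM computed without the 10 genes, DESeq2 1.42.0, edgeR's exact test, voom of limma 3.58.1, no filter, a minimum of 10 counts per library, 481 X and Y genes removed, 5 in place of 0.5 added to ratios, and each library left out in turn. Library totals without TMM factors were added after seeing the data. The analysis was tested on simulated data. Libraries were compared for duplicates, and none were found.

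Genes, lists and tests were chosen with earlier results of these data known. Named are the 10 genes, *Pkm*, up to 3 genes in each direction with the largest change among called genes of each list, other genes of the same reactions, and for the 3 genes among the 10 with the largest absolute log2 fold change, called or not, the 2 nearest genes in pattern. *Pfkl* and *Pfkp* are named beside *Pfkm* as genes of the same step. Words shared between transcripts were counted on the GENCODE transcripts of GRCm38, and gene positions are from the same annotation. The mRNA lengths are those of GENCODE transcripts matched to a RefSeq mRNA, and promoters are from RefSeq. Protein sequences were not used here.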

Additional observations from a re-analysis of the deposited data

How the results depend on the processing

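No paired analysis was possible, because the labels do not say which WT and KO embryos were littermates. Replicate numbers are also absent from the column names. When 1 library was left out, the number of genes called lower was 1 to 2 and the number called higher 3 to 5. The number called lower was 1 with DESeq2, edgeR's exact test, a minimum of 10 counts per library, and library totals without TMM factors. The log2 fold change of *Aldoa* no longer passed with RLE size factors (0.0581), DESeq2 (0.0581) and the exact test (0.0585), and was 0.0439 to 0.0778 with 1 library left out. *Aldoc* was 0.00573 without TMM factors, 0.00698 without WT c and 0.00431 without KO b, and -0.0802 at its lowest. *Gapdh* was 0.0924 and passed without TMM factors, and with 1 library left out was -0.00118 (without WT c) to 0.0675. *Tpi1* was 0.0680 to 0.0889 with 1 library left out. *Pgam2* no longer passed with DESeq2 (-0.0943), the exact test (-0.0940), at least 10 counts (-0.0918) and no TMM factors (-0.0459), and was -0.134 to -0.0685 with 1 library left out. The cause was not tested. Ratios and sums kept their direction in every alternative run, and their p cannot fall below 0.1. DESeq2 called 1639 genes lower and 1362 higher over all genes, against 2168 and 2011. *Eno1b* has no value under the minimum of 10 counts, and *Pgk1* none without X and Y. At 7 to 17 counts, depth limits the precision of *Eno1b* in WT.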
